A study of Mus musculus with 6 samples.

Results

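The genes of oxidative phosphorylation were followed in 6 single-cell RNA-seq libraries of mouse granulocyte-macrophage progenitors held in self-renewal by HOXA9 (iGMPs). The members were chosen by name. They are every gene column that begins with mt-, Ndufa, Ndufb, Ndufc, Ndufs, Ndufv, Uqcr, Cox4i, Cox5, Cox6, Cox7, Cox8 or Atp5, without the assembly factors Ndufaf and without pseudogenes. This gave 94 of the 27998 gene columns, of which 13 are encoded in mitochondrial DNA and 81 in the nucleus. The rule uses names and no measured value, but it was set with earlier results of these data known.

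Oxidative phosphorylation couples the transfer of electrons from nutrients to oxygen with the synthesis of ATP. Complexes I, III and IV of the inner mitochondrial membrane pass electrons along and pump protons, and complex V, the ATP synthase, uses the proton gradient to make ATP. Each of these complexes combines subunits read from the small circular genome inside mitochondria with subunits made in the cytosol from nuclear genes, so both genomes have to supply parts. Neutrophils are known for relying on glycolysis and for holding few mitochondria.

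All libraries came from C57BI/6 bone marrow cells (strain as labelled) that carry a Lysozyme-driven GFP reporter and HOXA9 fused to the ligand-binding domain of an estrogen receptor, and that were grown with stem cell factor. In the CAF-1 OFF arm, a clone with an IPTG-inducible short hairpin RNA that targets Chaf1b, which encodes part of the histone chaperone CAF-1, was given IPTG for 0, 48 or 96 h with estradiol still present. In the HOXA9 OFF arm, a clone with a control hairpin was cultured without estradiol for 0, 48 or 96 h, so that HOXA9 became inactive (both 0 h libraries are uninduced cells in estradiol). In total, 7821 barcodes were deposited (34 barcode sequences occur in more than 1 library), and the 5872 within the limits given below held between 3524285 and 5589486 UMIs per library. Live cells were sorted, and each arm and time is 1 library of 1 clone. No test between groups was therefore possible, every difference below is described by its size, and intervals are exact 95% intervals that cover counting error only.

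The defining genes of the progenitor, Cd34, Kit, Flt3, Mpo, Prtn3, Ctsg and Myb, were all present at 0 h, with summed levels of 7413 and 6546 CPM (UMIs of a gene scaled to a common library total) in the arms CAF-1 OFF and HOXA9 OFF. Their sum was 114 CPM in HOXA9 OFF at 96 h. The 10 neutrophil genes listed (S100a8, S100a9, Ltf, Ngp, Camp, Lcn2, Ly6g, Mmp8, Mmp9 and Itgam) summed to 30.3, 10474 and 144568 CPM in HOXA9 OFF and to 33.7, 718 and 1195 CPM in CAF-1 OFF, where Ltf was at 0 in each library. In CAF-1 OFF, 5 of the 6 megakaryocyte genes had a UMI and their sum went from 45.8 to 500 and 2687 CPM. HOXA9 OFF libraries held 35.3, 73.6 and 13.9 CPM of these genes. The eosinophil genes (6 of 6 with a UMI) summed to 1469, 19273 and 3250 CPM in HOXA9 OFF. CAF-1 OFF libraries held 217, 460 and 1241 CPM of them. Mast cell or basophil genes (5 of 6) reached 259, 1426 and 4000 CPM with CAF-1 OFF. HOXA9 OFF libraries held 713, 481 and 79.7 CPM of those. At 0 h HOXA9 OFF already stood above CAF-1 OFF, 6.76-fold for eosinophil and 2.75-fold for mast cell or basophil genes. Early granulocyte genes held 342, 1914 and 3688 CPM with CAF-1 OFF, and 259, 2532 and 762 CPM with HOXA9 OFF. The last sum hides opposite directions, since 3 of these 5 genes were at least 2-fold lower than at 0 h and 2 at least 2-fold higher. Their median log2 ratio was −1.63, and 39.8% and 18.1% of all genes compared were lower and higher by that size. Erythroid genes held 104, 248 and 322 CPM with CAF-1 OFF, and 94.5, 15.1 and 0.567 CPM with HOXA9 OFF. Only 1 of these 6 genes reached a mean of 20 CPM over the libraries. Of 6 lymphoid genes, Cd3e and Ms4a1 had 0 UMIs, and the other 4 summed to between 13.9 and 74.0 CPM per library. The share of the differences below that goes with this change of cell types was not tested, beyond the values by cell class given further down.

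Promoter sequence is shown here for 4 nuclear genes chosen after their values were seen. Ndufa12 and Atp5g2 were among the members that were far lower in HOXA9 OFF, and Ndufa6 and Cox7a2l were higher. The runs are the 250 bases before the outermost annotated start, 5′ to 3′, from RefSeq (GRCm38.p6), and capitals mark matches to GCATGCGC, the letters that the factor NRF1 binds.

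Ndufa12 (chr10:94198785-94199034, plus strand): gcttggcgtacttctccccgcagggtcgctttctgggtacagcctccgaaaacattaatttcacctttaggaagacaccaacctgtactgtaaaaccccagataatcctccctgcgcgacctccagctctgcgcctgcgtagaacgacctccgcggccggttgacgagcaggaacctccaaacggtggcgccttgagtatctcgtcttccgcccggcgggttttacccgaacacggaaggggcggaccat

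Atp5g2 (chr15:102671048-102671297, minus strand): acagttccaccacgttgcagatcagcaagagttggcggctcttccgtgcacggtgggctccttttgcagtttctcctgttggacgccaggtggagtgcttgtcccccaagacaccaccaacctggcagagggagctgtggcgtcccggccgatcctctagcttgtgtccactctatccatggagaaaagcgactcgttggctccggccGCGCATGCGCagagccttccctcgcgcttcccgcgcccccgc

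Ndufa6 (chr15:82354292-82354541, minus strand): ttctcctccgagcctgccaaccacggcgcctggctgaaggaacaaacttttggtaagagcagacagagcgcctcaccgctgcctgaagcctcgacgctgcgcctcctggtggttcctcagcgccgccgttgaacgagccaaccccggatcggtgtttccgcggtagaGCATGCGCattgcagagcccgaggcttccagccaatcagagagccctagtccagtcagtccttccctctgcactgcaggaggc

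Cox7a2l (chr17:83514334-83514583, minus strand): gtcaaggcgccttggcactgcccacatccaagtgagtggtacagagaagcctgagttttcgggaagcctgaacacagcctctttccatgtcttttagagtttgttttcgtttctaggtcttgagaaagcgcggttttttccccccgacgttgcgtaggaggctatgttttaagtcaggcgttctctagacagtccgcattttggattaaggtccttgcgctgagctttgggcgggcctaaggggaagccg

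The capitals in Atp5g2 are a pair of overlapping matches, 1 on each strand. In Ndufa6 there is 1 match, on the strand of the gene. Ndufa12 and Cox7a2l hold none of the 3 motifs that were searched on both strands, which were GCATGCGC, ACTTCCGG (an ETS motif that GABPA binds) and AAGATGGCG (YY1). NRF1, GABPA and YY1 are known regulators of nuclear respiratory genes. Promoter windows of 300 bases, from 250 before to 50 after a start, were found for 67 of the 81 nuclear members. GCATGCGC was in 12.3% of the members' 73 windows and in 2.71% of all 32851 windows, ACTTCCGG in 6.85% against 3.89%, and AAGATGGCG in 12.3% against 1.40%. At least 1 motif was present in 31.7% of the 41 members that were 2-fold or more lower in HOXA9 OFF at 96 h, and in 35% of the other 20 members tested that had a window. The shares are a description of the letters in these windows.

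Nuclear-encoded members were lower after HOXA9 inactivation and little lower after CAF-1 depletion. UMIs were summed over cells within the limits of the study (200 to 6000 genes and at most 10% mitochondrial UMIs) and scaled to the library total. The 81 genes together stood at 41344 CPM in uninduced CAF-1 OFF (95% Poisson limits 41150 and 41539), then at 39152 CPM at 48 h and at 35332 CPM at 96 h. In HOXA9 OFF they stood at 42051 CPM (41855 to 42248), 28663 CPM and 17532 CPM. The uninduced libraries thus lay close to each other, and the HOXA9 OFF libraries lay below every CAF-1 OFF library at 48 and 96 h. The sum was 1.06-fold and 1.17-fold lower than at 0 h in CAF-1 OFF, and 1.47-fold (1.46 to 1.48) and 2.40-fold (2.38 to 2.42) lower in HOXA9 OFF.

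**Figure D1:**
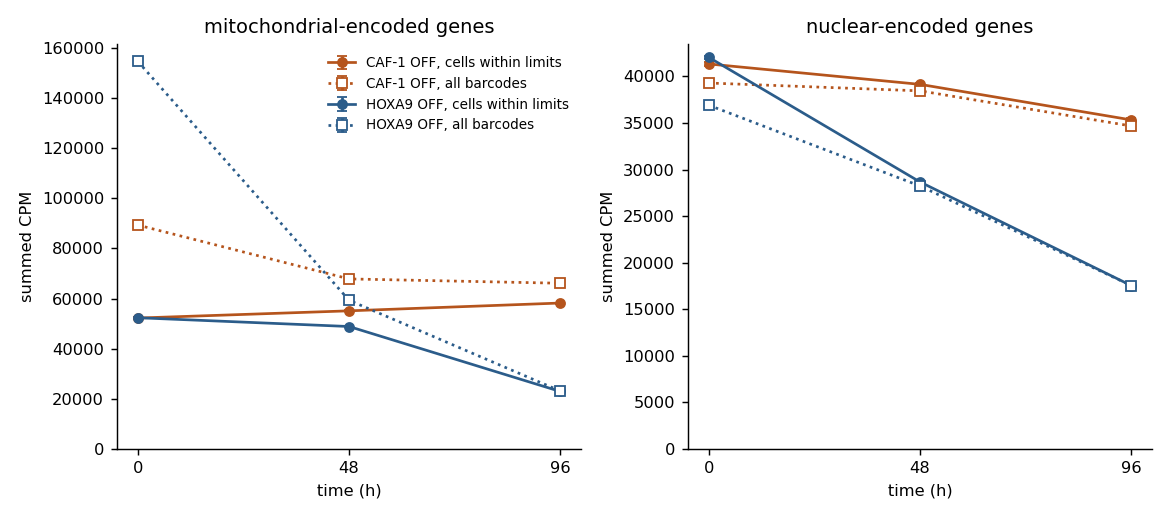
Summed level of the 13 mitochondrial-encoded genes (left) and the 81 nuclear-encoded genes (right) in CPM against time in hours, 1 library per point, with 95% Poisson intervals that are smaller than the symbols. Filled circles are cells within the limits and open squares all barcodes. The nuclear sums nearly coincide between these sets at 96 h, while the mitochondrial sums at 0 h differ widely, most of all in HOXA9 OFF.

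The fall was spread over most members. Of the 81 nuclear genes, 79 had a UMI and 72 reached a mean of 20 CPM over the 6 libraries. Those under it were Cox4i2, Cox7b2, Cox6b2, Atp5sl, Cox7a1, Cox8b, Cox8c, Atp5s and Ndufa4l2, several of them isoforms of muscle or testis. Ratios for single genes are given as log2 after adding 10 CPM to both libraries, which understates the change of low genes. In HOXA9 OFF at 48 h, 13 of the 72 were at least 2-fold lower and 1 at least 2-fold higher, beside 19.6% and 13% of all 4789 genes past the same minimum. The share of members lower by that size at 48 h was thus near that of all genes. At 96 h, 49 were lower and 0 higher, beside 39.8% and 18.1% of all genes. The median log2 ratio was −0.62 at 48 h and −1.33 at 96 h for the members, and −0.23 and −0.56 for all genes. At a size of 1.5-fold, 38 were lower and 2 higher at 48 h, beside 35% and 20.5% of all genes, and 61 lower and 1 higher at 96 h, beside 49.4% and 24.5%.

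In CAF-1 OFF the same genes stayed near their starting level. The median log2 ratio was −0.08 at 48 h and −0.23 at 96 h, against 0.00 and −0.08 for all genes. At 48 h, 1 member was at least 2-fold lower and 0 higher, beside 0.0418% and 2.76% of all genes. At 96 h it was also 1 lower and 0 higher, beside 0.856% and 5.22%. At 1.5-fold, 1 was lower and 0 higher at 48 h, beside 1.27% and 7.08% of all genes, and 6 were lower and 1 higher at 96 h, beside 8.79% and 11.7%. Between the uninduced clones no member differed by 1.5-fold, and the median difference was 0.03 on the log2 scale. The widest gap of a single member between them was 0.35.

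The total against which CPM are set changes strongly in HOXA9 OFF, and scaling moved the median of all genes there. Relative to total UMIs, TMM factors moved it by 0.25 at 48 h and 0.38 at 96 h, median-of-ratios factors by 0.20 and 0.44, and a total without mitochondrial-encoded and ribosomal protein UMIs by −0.03 and −0.37. The members' median stayed below that of all genes under each of the 6 scalings. It lay between 0.34 and 0.39 below at 48 h and between 0.70 and 0.82 below at 96 h in HOXA9 OFF, and between 0.14 and 0.15 below in CAF-1 OFF at 96 h. Counts past 2-fold depended more on it, and TMM left 30 members at least 2-fold lower in HOXA9 OFF at 96 h, 28 with median-of-ratios factors.

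**Figure D2:**
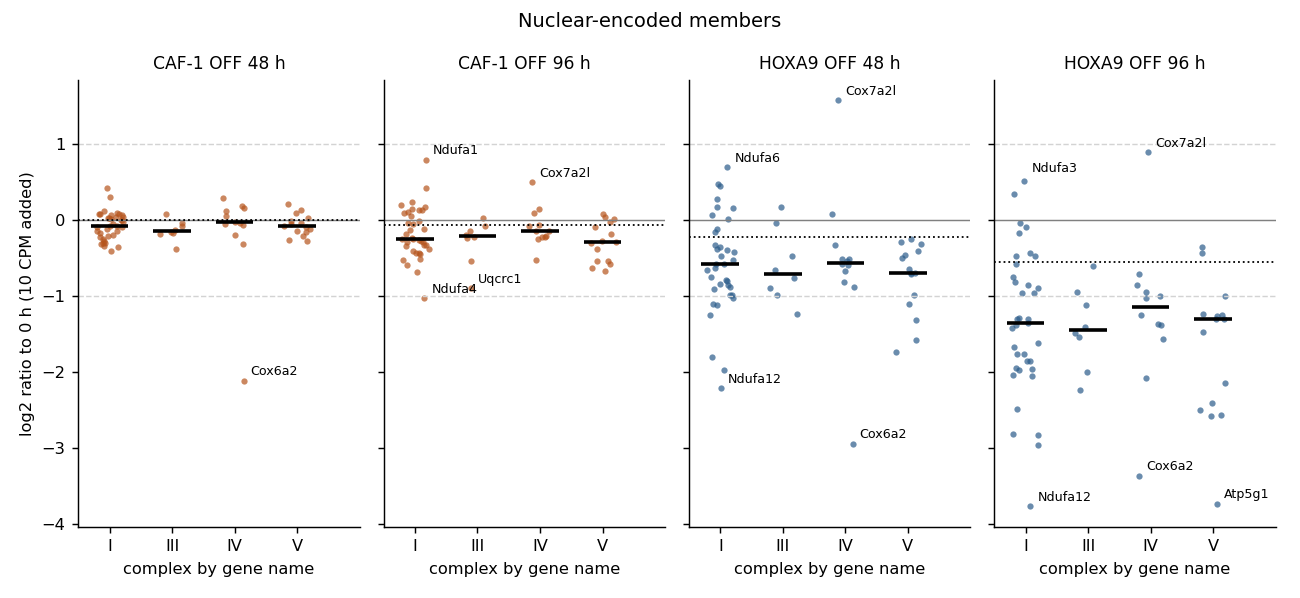
The log2 ratio to the 0 h library of the same arm (10 CPM added) for the 72 nuclear-encoded members past the minimum, by the complex that the gene name gives. Each point is a gene, thick bars are medians, the dotted line is the median of all 4789 genes and dashed lines mark 2-fold. The medians of all 4 complexes lie below that of all genes in both HOXA9 OFF panels, and Cox7a2l, Ndufa6 and Ndufa3 stand above 0 there.

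Each of the complexes was lower by sum in HOXA9 OFF, complex V and complex III most. Genes are first grouped by the complex in their name. In HOXA9 OFF at 96 h the summed CPM of complex V was 2.89-fold lower than at 0 h (2.84 to 2.94), of complex III 2.64-fold (2.57 to 2.72), of complex I 2.46-fold (2.42 to 2.5) and of complex IV 1.92-fold (1.89 to 1.95). The corresponding values in CAF-1 OFF at 96 h were 1.24-fold, 1.15-fold, 1.20-fold and 1.07-fold. The order of complexes I and IV turned when Ndufa4 and Ndufa4l2 were counted in complex IV and Cox7a2l was left out, a grouping added after seeing the data. Complex I was then 2.18-fold (2.15 to 2.22) and complex IV 2.45-fold (2.41 to 2.49) lower in HOXA9 OFF, with 1.10-fold and 1.21-fold in CAF-1 OFF. The order by median log2 ratio differed, with −1.45 for complex III (8 genes), −1.36 for complex I (37), −1.31 for complex V (15) and −1.14 for complex IV (12). The medians of the complexes thus lay within a narrow range, and all were below the −0.56 of all genes.

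Among the nuclear genes of complex I, which takes electrons from NADH, the 7 core subunits that carry out the reaction were all lower in HOXA9 OFF at 96 h. Their median was −1.36, and it ran from −0.97 for Ndufs7 to −2.04 for Ndufv1, the NADH-binding subunit. The 29 accessory subunits were far more spread. Ndufa12 (chr10:94199035-94221440), an accessory subunit of the peripheral arm, stood at 501, 451 and 423 CPM in CAF-1 OFF, compared with 475, 94.2 and 25.5 CPM in HOXA9 OFF. The late HOXA9 OFF level lay far below every other library, 18.6-fold (15.1 to 23.2) under that at 0 h. It was the lowest log2 ratio of all members, at −3.77. Ndufab1, the acyl carrier protein of mitochondria, stood at 491, 117 and 54.5 CPM in HOXA9 OFF and at 496, 395 and 362 CPM in CAF-1 OFF. Ndufc2, a membrane arm subunit, stood at 437, 208 and 53.1 CPM in HOXA9 OFF, 8.23-fold lower at 96 h, and at 423, 387 and 383 CPM in CAF-1 OFF.

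A few accessory subunits went the other way. Ndufa6 (chr15:82350139-82354291) stood at 360, 586 and 458 CPM in HOXA9 OFF and at 335, 349 and 396 CPM in CAF-1 OFF. The HOXA9 OFF levels at 48 and 96 h were above all others, 1.63-fold (1.53 to 1.73) and 1.27-fold (1.19 to 1.37) over 0 h, although at 96 h the direction turned, to a log2 ratio of −0.07, with a total without mitochondrial-encoded and ribosomal protein UMIs. Ndufa3 stood at 170, 207 and 245 CPM in HOXA9 OFF and at 145, 154 and 161 CPM in CAF-1 OFF. Ndufa1, a small X-linked subunit of the membrane arm, was the member with the largest rise in CAF-1 OFF, from 118 to 161 and 212 CPM, or 1.79-fold (1.61 to 1.99) at 96 h. In HOXA9 OFF it stood at 130, 184 and 121 CPM. Ndufb3 stood at 234, 290 and 318 CPM in CAF-1 OFF, compared with 245, 335 and 140 CPM in HOXA9 OFF. Both genes were therefore higher than at 0 h in either arm at 48 h. In HOXA9 OFF at 96 h the log2 ratio of Ndufa1 was −0.10, which turned to 0.36 with TMM, 0.43 with median-of-ratios factors, 0.24 without the 50 most abundant genes, 0.034 over all barcodes and 0.031 against the other 0 h library.

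Complex III passes electrons from ubiquinol to cytochrome c. Uqcrc1 and Uqcrc2, its large matrix-side proteins, were lower in both arms. Their sum was 1.70-fold lower (1.60 to 1.80) at 96 h of CAF-1 OFF, and in HOXA9 OFF 1.78-fold and 3.06-fold lower at 48 and 96 h. Uqcrc1 (chr9:108936648-108949641) stood at 359, 273 and 188 CPM in CAF-1 OFF, compared with 307, 160 and 103 CPM in HOXA9 OFF. It was about as far below its own start at 96 h in CAF-1 OFF as at 48 h in HOXA9 OFF, 1.91-fold (1.77 to 2.07) and 1.92-fold (1.76 to 2.10). Uqcrfs1, the Rieske iron-sulfur protein, stood at 364, 383 and 306 CPM in CAF-1 OFF, compared with 327, 316 and 144 CPM in HOXA9 OFF, which is 2.27-fold lower at 96 h in HOXA9 OFF. At 48 h its ratio of 0.967 had an interval that includes 1 (0.900 to 1.04), and the log2 ratio of −0.047 turned to 0.25 with TMM, 0.18 with median-of-ratios factors, 0.10 without the 50 most abundant genes and 0.11 over all barcodes.

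In complex IV, which hands electrons to oxygen, 10 ubiquitous subunits had a median log2 ratio of −0.56 and −1.14 in HOXA9 OFF and of −0.04 and −0.18 in CAF-1 OFF. Cox4i1, the subunit that starts assembly around the catalytic core, stood at 2001, 2112 and 1217 CPM in HOXA9 OFF and at 1995, 1937 and 1718 CPM in CAF-1 OFF. Cox7b stood at 572, 305 and 127 CPM in HOXA9 OFF, and its log2 ratio of −2.09 at 96 h was the lowest of the 10. Cox7a2l (chr17:83501917-83514333) is by function a factor that joins complexes III and IV into supercomplexes. It stood at 452, 1366 and 845 CPM in HOXA9 OFF and at 418, 510 and 593 CPM in CAF-1 OFF. It was the only one of the 72 members past 20 CPM that was at least 2-fold higher in any of the 4 comparisons with total-UMI scaling, 3.02-fold (2.87 to 3.18) in HOXA9 OFF at 48 h, and it was 1.87-fold and 1.42-fold higher at 96 h in HOXA9 OFF and CAF-1 OFF. The Prg2-rich cells described below held the highest level of it, 2067 CPM, at 48 h.

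Ndufa4 carries a complex I name but is a subunit of complex IV. It stood at 2579, 2079 and 1254 CPM in CAF-1 OFF, compared with 2238, 634 and 309 CPM in HOXA9 OFF. It was the member that was at least 2-fold lower in CAF-1 OFF at 96 h, 2.06-fold (2.00 to 2.12), a size that TMM scaling (0 such members), the other arm's 0 h library (0) or all barcodes (0) brought under 2-fold. In HOXA9 OFF it was 3.53-fold and 7.24-fold (6.79 to 7.71) lower. AA467197, a paralogue of Ndufa4 that can take its place in complex IV and that the name rule does not catch, went the opposite way. It had 1, 97 and 217 UMIs in HOXA9 OFF, or 0.239, 18.3 and 61.6 CPM, and 1, 7 and 17 UMIs in CAF-1 OFF. The ratio to 0 h in HOXA9 OFF was 258-fold at 96 h, with a wide counting interval (45.8 to 10237) that comes from the single UMI at 0 h. Another paralogue, Ndufa4l2, had 40 UMIs in HOXA9 OFF at 0 h and 0 at 48 and 96 h, at least 16.9-fold and 11.2-fold lower against a floor of 3 counts per library, and 15, 46 and 2 UMIs in CAF-1 OFF.

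Cox6a2 (chr7:128205435-128206366) is the subunit isoform known from heart and skeletal muscle, and it was the only member of 8 tissue-restricted isoforms past the minimum. It had 396, 78 and 453 UMIs in CAF-1 OFF (94.0, 14.0 and 84.0 CPM) and 415, 22 and 2 UMIs in HOXA9 OFF (99.0, 4.14 and 0.567 CPM). The CAF-1 OFF library at 48 h was 6.73-fold lower (5.27 to 8.70) than at 0 h, and the library at 96 h was back within 1.12-fold (0.975 to 1.28). At 96 h the log2 ratio of Cox6a2 turned from −0.15 to 0.48 with a mitochondrial limit of 5%. Its log2 ratio of −2.12 at 48 h was the lowest among all 4789 genes in that comparison, where only 2 genes were at least 2-fold lower. With 1 library per time point, it cannot be told apart whether this dip belongs to the time or to that library. Cox6a1, the isoform of other tissues, stood at 691, 783 and 657 CPM in CAF-1 OFF, compared with 880, 615 and 482 CPM in HOXA9 OFF. Cox4i2, an isoform of lung, was at 0 UMIs at 0 h in both arms and at 9 and 28 UMIs in CAF-1 OFF, at least 2.26-fold and 7.29-fold higher against the same floor.

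Within ATP synthase the c ring, the rotor that protons turn, had the lowest ratios to 0 h by summed level in HOXA9 OFF. Atp5g1, Atp5g2 and Atp5g3 encode the same mature c subunit from 3 genes. Their sum stood at 2356, 2134 and 1756 CPM in CAF-1 OFF, compared with 2496, 1071 and 290.3 CPM in HOXA9 OFF, 8.60-fold lower at 96 h (8.06 to 9.18). All 3 took part, with 1175, 346 and 78.9 CPM for Atp5g1 (chr11:96072793-96075694), 865, 548 and 144 CPM for Atp5g2, and 456, 177 and 67.5 CPM for Atp5g3 in HOXA9 OFF. Atp5g1 was 14.9-fold lower (13.2 to 16.9) at 96 h, a log2 ratio of −3.74. Because the 3 genes share the mature protein, reads from similar stretches could be split between them, on which the sum does not depend.

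The 5 genes of the F1 head, which holds the catalytic sites, were 2.99-fold lower by sum in HOXA9 OFF at 96 h and 1.44-fold (1.41 to 1.47) lower in CAF-1 OFF. Atp5b, the catalytic beta subunit, stood at 1739, 1553 and 1088 CPM in CAF-1 OFF, compared with 1396, 460 and 254 CPM in HOXA9 OFF. It was 1.60-fold (1.54 to 1.65) and 5.50-fold (5.13 to 5.91) lower at 96 h. Atp5a1, its alpha partner, stood at 760, 683 and 488 CPM and at 653, 397 and 139 CPM. Atp5e, the epsilon subunit of the same head, did not go along, with 574, 614 and 589 CPM in CAF-1 OFF, compared with 555, 465 and 431 CPM in HOXA9 OFF, where TMM turned its log2 ratio from −0.36 to 0.12. The peripheral stalk (4 genes) was 2.63-fold lower in HOXA9 OFF at 96 h, led by Atp5o with 590, 267 and 90.8 CPM, and the 3 small membrane subunits were 1.79-fold lower.

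**Figure D3:**
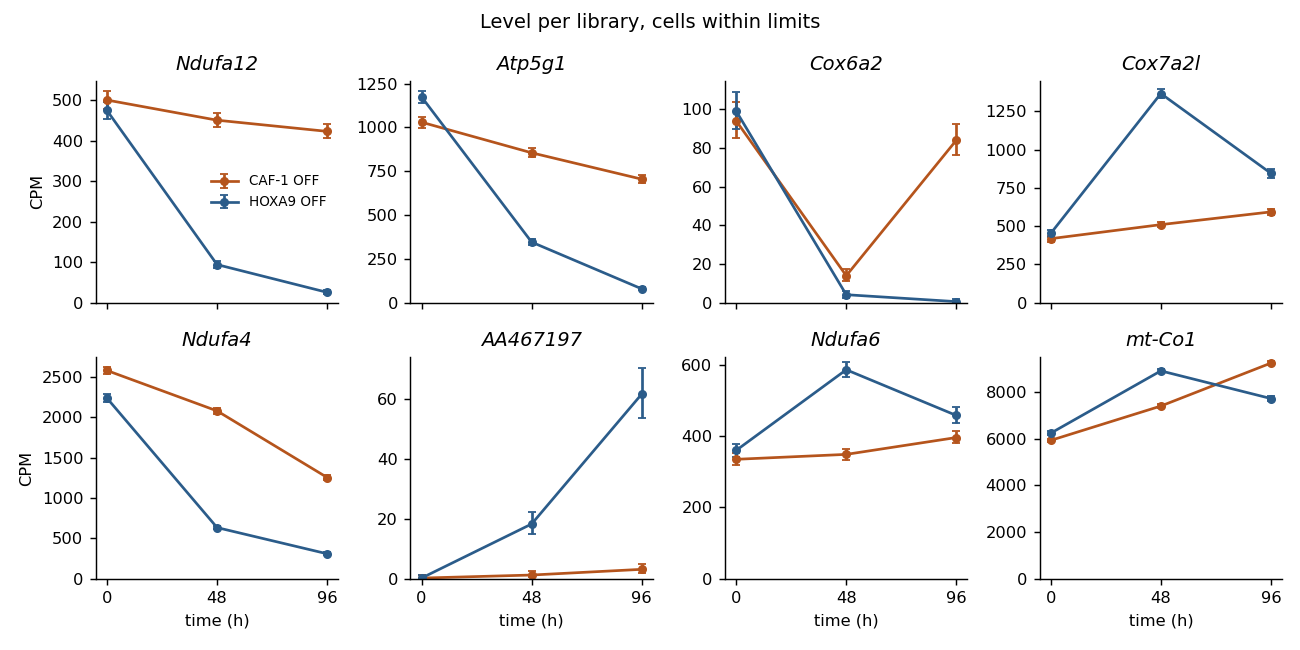
Level in CPM against time in hours for 8 genes in cells within the limits, 1 library per point with 95% Poisson intervals, CAF-1 OFF in orange and HOXA9 OFF in blue. Ndufa12, Atp5g1 and Ndufa4 are lower in HOXA9 OFF at 48 and 96 h, Cox6a2 dips in CAF-1 OFF at 48 h alone, and Cox7a2l, AA467197 and mt-Co1 are higher in HOXA9 OFF than at 0 h.

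The mitochondrial-encoded genes need the barcodes to be looked at first, because the limit of 10% is set on these genes themselves. It removed 1949 of 7821 barcodes, every one of them for its mitochondrial share. Barcodes lay at low, middle and high shares, with 5714 under 8%, 1234 over 50%, and 429 and 444 between 8 and 20% and between 20 and 50%. In CAF-1 OFF at 96 h, 85 and 92 lay in these middle ranges, more than over 50%. Those over 50% numbered 246, 107 and 12 in CAF-1 OFF, compared with 805, 64 and 0 in HOXA9 OFF, so the uninduced libraries held most of them. Removed barcodes were shallow, with medians from 717 to 1437 UMIs per barcode against 2043.5 to 8660 in kept cells. Of their UMIs from other genes, those of the nuclear-encoded members were 3.76%, 3.51% and 2.77% in CAF-1 OFF, compared with 3.51%, 2.56% and 1.81% in HOXA9 OFF, where kept cells had 4.36%, 4.14% and 3.75% and 4.44%, 3.01% and 1.79%. The removed share was lower in 5 of the 6 libraries, and that of HOXA9 OFF at 96 h rests on 3 barcodes.

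**Figure D4:**
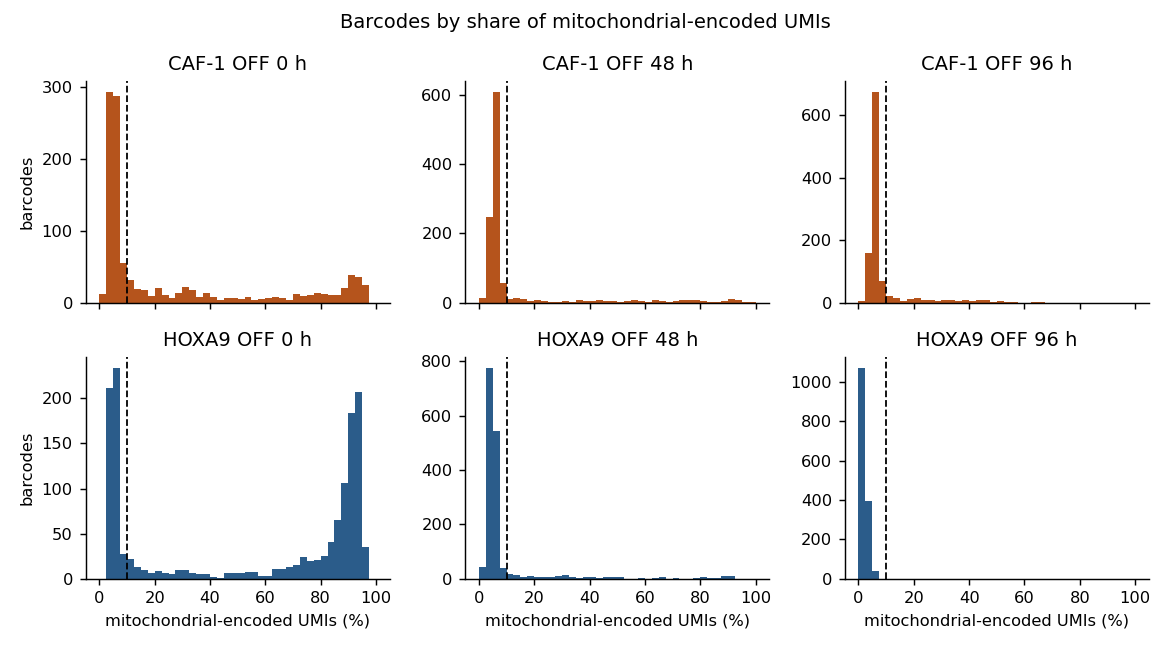
Number of barcodes by the percentage of their UMIs that is mitochondrial-encoded, in bins of 2.5 points, for each library, and the dashed line is the limit of 10%. HOXA9 OFF at 0 h has a second group of barcodes over 50% (805 of them), which is smaller in CAF-1 OFF at 0 h (246) and has no barcode in HOXA9 OFF at 96 h.

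Over all barcodes the 13 genes summed to 89336, 67832 and 66104 CPM in CAF-1 OFF, compared with 154685, 59305 and 23065 CPM in HOXA9 OFF. In cells within the limits they summed to 52212, 55087 and 58202 CPM and to 52331, 48827 and 22881 CPM. The uninduced libraries were alike only within the limits, and the direction in CAF-1 OFF depended on the barcodes, since the sum at 96 h was 1.35-fold lower than at 0 h over all of them and 1.11-fold higher (1.11 to 1.12) within the limits. HOXA9 OFF at 96 h was lower in both sets, 6.71-fold over all barcodes and 2.29-fold (2.27 to 2.31) within the limits. At 48 h it was 2.61-fold lower over all barcodes and 1.07-fold lower within the limits. With at least 1000 UMIs per barcode, a set chosen after seeing the data, the sums were 63793, 59089 and 64102 CPM and 74125, 52120 and 22985 CPM.

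The balance between the genomes was set as the ratio of mitochondrial-encoded to nuclear-encoded UMIs, which no scaling affects. These are numbers of UMIs from 3′ ends and do not compare transcripts by length. In cells within the limits the ratio was 1.26, 1.41 and 1.65 in CAF-1 OFF, compared with 1.24, 1.70 and 1.31 in HOXA9 OFF, and the widest interval was that of HOXA9 OFF at 96 h (1.29 to 1.32). It was thus higher than at 0 h in all 4 later libraries with this limit. With a limit of 20% HOXA9 OFF at 96 h turned to below 0 h (1.31 against 1.34), and with at least 1000 UMIs so did that library (1.31 against 1.82) and CAF-1 OFF at 48 h (1.52 against 1.57). Over all barcodes it was 2.27, 1.76 and 1.91 in CAF-1 OFF, compared with 4.19, 2.10 and 1.32 in HOXA9 OFF, so that all 4 later libraries were below their 0 h library. Removed barcodes gave 48.3%, 22.2% and 16.1% of the mitochondrial-encoded UMIs in CAF-1 OFF, compared with 72.1%, 20.8% and 0.931% in HOXA9 OFF.

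Within the mitochondrial-encoded UMIs, the share of mt-Co1 moved in the same direction in every set of barcodes. The share of mt-Co1, the catalytic subunit of complex IV, was 11.4%, 13.4% and 15.9% in CAF-1 OFF, compared with 11.9%, 18.3% and 33.8% in HOXA9 OFF in cells within the limits, and the widest exact binomial interval was the last (33.4 to 34.1). Over all barcodes it was 10.6%, 13% and 15.6% and 9.79%, 17.1% and 33.7%. Among removed barcodes alone it was 9.82%, 11.5% and 13.8% and 8.97%, 12.8% and 24.5%, of which the last rests on 3 barcodes. The share was therefore higher at 48 h than at 0 h and higher again at 96 h in both arms in these 3 sets. The share of mt-Co3 was lower at 48 h and lower again at 96 h in both arms in the same 3 sets. Not every gene kept its direction. In HOXA9 OFF mt-Atp6 went from 25.1% to 21.6% between 0 and 96 h in cells within the limits and from 25.9% to 21.7% over all barcodes. In removed barcodes it went from 26.2% to 27.0%, of which the last again rests on 3 barcodes.

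By level, mt-Co1 stood at 5933, 7406 and 9249 CPM in CAF-1 OFF, compared with 6241, 8914 and 7727 CPM in HOXA9 OFF. It was 1.56-fold (1.54 to 1.58) and 1.24-fold (1.22 to 1.26) higher at 96 h than at 0 h, while the other 12 genes were lower in HOXA9 OFF at 96 h. That rise in level does not hold in every setting, because the log2 ratio in HOXA9 OFF at 96 h was 0.31 within the limits, −0.96 over all barcodes and −0.12 with a total without mitochondrial-encoded and ribosomal protein UMIs. At 48 h the log2 ratio of mt-Co1 turned over all barcodes in both arms. It went from 0.51 within the limits to −0.58 in HOXA9 OFF, and from 0.32 to −0.10 in CAF-1 OFF. The share of mt-Co1 among the 13 genes does not depend on the scaling. The other mitochondrial-encoded subunits of complex IV did not follow. mt-Co2 kept its share, between 11.4% and 12.3% in all 6 libraries, and mt-Co3 went from 19.6% to 15.5% and 12.1% in HOXA9 OFF and from 19.4% to 18.7% and 16.0% in CAF-1 OFF.

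mt-Nd1, a core subunit of complex I, was the counterpart. It stood at 6039, 3355 and 936 CPM in HOXA9 OFF, 6.45-fold lower at 96 h (6.22 to 6.69), and its share went from 11.5% to 6.87% and 4.09%. In CAF-1 OFF it stood at 5656, 5636 and 5738 CPM within the limits. Its log2 ratio of 0.021 at 96 h there turned to −0.58 over all barcodes, −0.18 with a 5% limit, −0.035 with a 20% limit and −0.074 against the other 0 h library. mt-Nd2 stood at 1336, 876 and 281 CPM in HOXA9 OFF. mt-Cytb, the only mitochondrial-encoded gene of complex III, stood at 5561, 4922 and 1762 CPM, and mt-Atp6 of complex V at 13112, 13627 and 4954 CPM. Within the limits mt-Cytb and mt-Atp6 were near their 0 h level at 48 h and lower at 96 h, whereas mt-Nd1 and mt-Nd2 were already lower at 48 h. Over all barcodes each was lower at 48 h, with log2 ratios of −1.55 for mt-Cytb, −1.27 for mt-Atp6, −2.10 for mt-Nd1 and −1.60 for mt-Nd2.

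Of the remaining genes, mt-Nd4 stood at 3003, 3062 and 1356 CPM, mt-Nd3 at 307, 188 and 106 CPM and mt-Nd5 at 285, 243 and 180 CPM in HOXA9 OFF. mt-Nd4l and mt-Atp8 had at most 41.5 CPM in every library, and because each overlaps a neighbour on a shared transcript (mt-Nd4 and mt-Atp6), their counts are uncertain. mt-Nd6, the only member read from the other strand of the mitochondrial genome, had 64, 60 and 22 UMIs in CAF-1 OFF, compared with 72, 14 and 9 UMIs in HOXA9 OFF. It was the only mitochondrial-encoded gene at least 2-fold lower in CAF-1 OFF by CPM, 3.72-fold (2.26 to 6.35) at 96 h, and in HOXA9 OFF it was 6.52-fold and 6.73-fold lower. By complex, the 7 genes of complex I were 3.83-fold lower in HOXA9 OFF at 96 h, those of complex IV 1.70-fold.

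**Figure D5:**
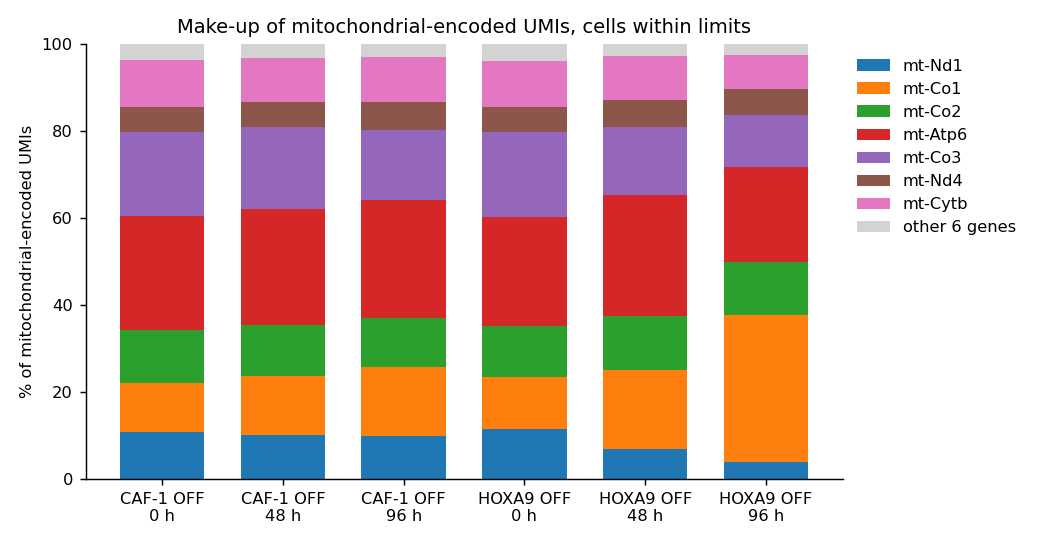
Percentage of mitochondrial-encoded UMIs that each gene holds in the 6 libraries, in cells within the limits, with bars stacked to 100%. The mt-Co1 segment widens from 11.9% to 33.8% in HOXA9 OFF and from 11.4% to 15.9% in CAF-1 OFF, and the mt-Nd1 segment narrows to 4.09% in HOXA9 OFF at 96 h.

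To see whether a few deep cells set the library values, each cell with at least 1300 UMIs was thinned to 1300 UMIs. Cells below that depth were left out, and 1376 of 1510 cells remained in HOXA9 OFF at 96 h. The median share of nuclear-encoded OXPHOS UMIs per cell was then 4.08%, 3.85% and 3.46% in CAF-1 OFF, compared with 4.15%, 2.69% and 1.62% in HOXA9 OFF. The middle range of cells, from the 10th to the 90th percentile, ran from 3.31% to 5.08% in HOXA9 OFF at 0 h and from 1.00% to 2.38% at 96 h, so these ranges did not overlap. In CAF-1 OFF the ranges at 0 and 96 h, 3.31% to 4.92% and 2.69% to 4.38%, overlapped widely. Cells of 1 library are not replicates, and these ranges describe the libraries.

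HOXA9 OFF cells at one time were not alike. Cells in which Prg2, the eosinophil major basic protein, held at least 2% of UMIs were set apart from those in which S100a8 with S100a9, the neutrophil calprotectin genes, held at least 2%. These are ranges of a score and not cell types, and 45 of the 152 S100a8-rich cells at 48 h lay near the bound, between 1% and 3%. At 48 h nuclear-encoded members stood at 24191 CPM in 203 Prg2-rich cells, 25195 CPM in 152 S100a8-rich cells and 29776 CPM in the other 1049 cells. At 96 h they stood at 20510 CPM in 31 Prg2-rich, 15623 CPM in 1288 S100a8-rich and 25081 CPM in the other 191 cells. Cells of neither range were thus also below the 42051 CPM of the library at 0 h, and the S100a8-rich cells were lowest at 96 h. Leaving the 3 genes out of the totals gave 22520, 18245 and 25238 CPM at 96 h.

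Single members differed in their order at 96 h, given here for Prg2-rich, S100a8-rich and other cells. Ndufa12 was at 28.4, 14.5 and 71.5 CPM, against 475 CPM in the library at 0 h, and Atp5g1 was at 133, 47.4 and 202 CPM against 1175 CPM. mt-Co1 was at 10189, 7079 and 10056 CPM, close to each other in Prg2-rich and other cells. Cox7a2l was at 1697, 718 and 1241 CPM, highest in the Prg2-rich cells. The mitochondrial-encoded genes together stood at 41333, 19288 and 35023 CPM in Prg2-rich, S100a8-rich and other cells at 96 h.

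Other genes of respiration, taken as lists, were compared at the same sizes. Complex II, which links the citric acid cycle to the chain and is wholly nuclear-encoded, had 3 of 4 genes at least 2-fold lower in HOXA9 OFF at 96 h and 0 of 4 in CAF-1 OFF, beside 39.8% and 0.856% of all genes. Sdha stood at 182, 153 and 108 CPM in CAF-1 OFF, compared with 145, 72.5 and 56.7 CPM in HOXA9 OFF. Of the electron carriers and late-named subunits, 4 of 6 passed the minimum and 3 of these were at least 2-fold lower in HOXA9 OFF at 96 h, beside the same 39.8%. Cycs, the soluble cytochrome c, stood at 590, 146 and 94.5 CPM in HOXA9 OFF and at 567, 534 and 521 CPM in CAF-1 OFF. With HOXA9 OFF it was 4.04-fold lower already at 48 h. Cyc1, the cytochrome of complex III, stood at 299, 101 and 58.5 CPM, and Atpif1, the inhibitor of ATP synthase, at 952, 414 and 204 CPM. In CAF-1 OFF Atpif1 was higher, at 917, 991 and 1201 CPM, and Usmg5, a small ATP synthase subunit, stood at 484, 528 and 571 CPM.

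Factors that build complex I were mostly lower. Of 13 listed, 7 passed the minimum, and 6 of these were at least 2-fold lower in HOXA9 OFF at 96 h and 1 in CAF-1 OFF, beside 39.8% and 0.856% of all genes. The latter was Ndufaf4, with 101, 57.3 and 37.6 CPM in CAF-1 OFF, compared with 90.2, 10.2 and 3.69 CPM in HOXA9 OFF. Ndufaf2, an assembly factor related in sequence to Ndufa12, had the lowest ratio of its list, with 101, 20.9 and 1.99 CPM in HOXA9 OFF. Assembly genes of complexes III to V were close to all genes, with 5 of 11 at least 2-fold lower beside 39.8% and a median of −0.62 beside −0.56, and Cox17, the copper chaperone of complex IV, stood at 155, 132 and 195 CPM in HOXA9 OFF.

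Of 12 genes listed that copy and read mitochondrial DNA, 4 passed the minimum, and 3 of these were at least 2-fold lower in HOXA9 OFF at 96 h and 0 in CAF-1 OFF, beside 39.8% and 0.856% of all genes. Tfam, which packages that DNA and starts its transcription, stood at 59.4, 21.1 and 10.2 CPM in HOXA9 OFF and at 61.2, 44.4 and 40.4 CPM in CAF-1 OFF. Slirp, an RNA-binding protein that stabilises mitochondrial transcripts, stood at 242, 127 and 34.9 CPM in HOXA9 OFF and at 182, 208 and 254 CPM in CAF-1 OFF. Polrmt, the mitochondrial RNA polymerase, was too low to follow, with between 0 and 5.46 CPM. Of the nuclear regulators listed, Ppargc1a had no UMI, and Esrra stood at 14.0, 20.8 and 31.3 CPM in CAF-1 OFF, compared with 30.8, 26.7 and 44.3 CPM in HOXA9 OFF. The uninduced clones differed as much for Esrra as the CAF-1 OFF series did.

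The neighbouring pathways showed where the members stood. Of 13 citric acid cycle genes, 11 were at least 2-fold lower in HOXA9 OFF at 96 h, beside 39.8% of all genes, with a median of −1.54 and the lowest value for Idh3a (132, 24.5 and 2.84 CPM). All 6 carriers and porins of the mitochondrial membranes were below 0 h in all 4 comparisons, with medians of −0.53 in CAF-1 OFF, compared with −1.95 in HOXA9 OFF at 96 h. Mitochondrial ribosomal protein genes (74 past the minimum) had a median of −1.78 and cytosolic ribosomal protein genes (84) of −1.72 in HOXA9 OFF at 96 h, both lower than the −1.33 of the members. At 48 h the cytosolic ribosomal protein genes were still at −0.07, while the members were at −0.62 and the mitochondrial ribosomal protein genes at −0.88. Glycolysis genes had medians of −0.49 and −0.32, with 5 of 13 at least 2-fold lower and 1 higher at 96 h, beside 39.8% and 18.1% of all genes. Their levels ran in opposite directions, since Pkm stood at 702, 757 and 1231 CPM and Tpi1 at 543, 151 and 75.5 CPM. By their median the members were below all genes in HOXA9 OFF at 96 h. They were below complex II (−1.18) and the assembly genes of complexes III to V (−0.62), and above the citric acid cycle, carrier and mitochondrial ribosomal lists, with no test of these differences.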

How the data were processed

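Single-cell RNA was measured with 10x 3′ libraries, 1 per arm and time. The deposited table holds UMI counts per barcode and gene, which the authors made with Cell Ranger (3.0.1 in the submitters' notes) on GRCm38. The notes also name Seurat 3.0.1 and Scanpy 1.4.6. The number of per-sample columns not used was 0. The members and gene lists were chosen with earlier results of these data known.

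Barcodes with 200 to 6000 genes and at most 10% mitochondrial-encoded UMIs were kept, as in the study's limits, and all barcodes were used alongside for the mitochondrial-encoded sums, for which they are the set fixed in the design. Counts were summed per library and divided by the library total (CPM). A gene was compared where its mean over the 6 libraries was at least 20 CPM, as log2 after adding 10 CPM. Called means 2-fold, or 1.5-fold where said. A fold against a library at 0 used a floor of 3 counts per library. Intervals are exact 95% Poisson intervals for CPM and exact binomial (Clopper-Pearson) intervals for folds and shares. Counts are UMIs, and intervals and floors cover counting error only. No p-values are given, since each group has 1 library.

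Genes named in the text are members with at least 50 CPM that were among the 5 largest rises or falls in a comparison, together with the mitochondrial-encoded genes and members of the fixed lists, and others were chosen after their values were seen. Scrublet marked 125 kept cells (2.13%) as doublets, which were kept in the main values. TMM factors came from edgeR 4.0.16 in R 4.3.3. Python 3.11.15, numpy 2.4.6, scipy 1.17.1, pandas 2.3.3 and scanpy 1.11.5 did the rest. The fold and interval steps were tested on simulated data. Promoters came from RefSeq windows of 250 bases before to 50 after a start.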

Additional observations from a re-analysis of the deposited data

Results flagged for a closer look

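A few results moved in opposite directions in the arms, with both later libraries of CAF-1 OFF above their 0 h library and both of HOXA9 OFF below theirs. This difference between arms was not tested, because each group has 1 library. Values are ratios of CPM to 0 h, in the order CAF-1 OFF at 48 h and 96 h, then HOXA9 OFF at 48 h and 96 h. Ndufa13, an accessory subunit of complex I, had ratios of 1.08, 1.15, 0.894 and 0.717, and its log2 ratio in HOXA9 OFF turned to 0.14 at 48 h and 0.0070 at 96 h with TMM, and to 0.076 and 0.085 with median-of-ratios factors. Cox7a2, a small subunit of complex IV, had ratios of 1.08, 1.10, 0.663 and 0.378. Atp5h, a subunit of the peripheral stalk of ATP synthase, had ratios of 1.09, 1.05, 0.803 and 0.397. Cox8a, the smallest subunit of complex IV, had ratios of 1.12, 1.07, 0.684 and 0.488. The summed mitochondrial-encoded genes in cells within the limits had ratios of 1.06, 1.11, 0.933 and 0.437, and over all barcodes the CAF-1 OFF values were below 0 h. Against the 0 h library of the other arm, the CAF-1 OFF log2 ratios of Cox8a turned to −0.055 at 48 h and −0.12 at 96 h, and those of Cox7a2 and Ndufa13 to −0.015 and −0.011 at 48 h.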

How the results depend on the processing

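All values are log2 ratios to 0 h unless said. The nuclear-encoded sum stayed below 0 h in all 4 comparisons under every alternative run. For CAF-1 OFF at 48 h it was −0.08, and −0.10 with TMM, −0.14 with median-of-ratios factors, −0.10 with a total without mitochondrial-encoded and ribosomal protein UMIs, −0.068 without the 50 most abundant genes, −0.031 over all barcodes, −0.094 with a 5% limit and −0.10 against the other arm's 0 h library. In the same order it was −0.23 at 96 h, and −0.15, −0.20, −0.24, −0.20, −0.18, −0.24 and −0.25. For HOXA9 OFF at 48 h it was −0.55, and −0.25, −0.31, −0.57, −0.40, −0.39, −0.63 and −0.53. At 96 h it was −1.26, and −0.78, −0.70, −1.69, −0.90, −1.07, −1.29 and −1.24, with −1.31 without mitochondrial-encoded UMIs in the total. Without Ndufa4, Atp5b, Cox4i1 and Cox8a, chosen after seeing the data, it was −0.18, −0.51 and −1.22 for CAF-1 OFF at 96 h, then HOXA9 OFF at 48 and 96 h.

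The median over members in HOXA9 OFF was −0.62 at 48 h, and −0.33 (TMM), −0.39 (median-of-ratios), −0.47 (without the top 50) and −0.46 (all barcodes). At 96 h it was −1.33, and −0.90, −0.82, −1.02 and −1.18, with −1.76 without mitochondrial-encoded and ribosomal protein UMIs and −1.18 with 50 CPM added. Members at least 2-fold lower in HOXA9 OFF numbered 13 at 48 h (7 with TMM, 38 at 1.5-fold) and 49 at 96 h (30 with TMM, 28 with median-of-ratios). Those higher numbered 1 at 48 h (2 at 1.5-fold) and 0 at 96 h (1 with TMM, without the top 50, over all barcodes or at 1.5-fold, and 2 with median-of-ratios). In CAF-1 OFF, 1 was lower at 48 h (0 with a minimum of 50 CPM) and 1 at 96 h (0 with TMM, all barcodes or the other baseline, and 6 at 1.5-fold), and 0 were higher at 96 h (1 at 1.5-fold).

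The mitochondrial-encoded sum depended on the barcodes. Over all barcodes it was −0.40, −0.43, −1.38 and −2.75 (CAF-1 OFF at 48 and 96 h, HOXA9 OFF at 48 and 96 h). Within the limits it was 0.077, 0.16, −0.10 and −1.19, with a 20% limit 0.0070, 0.093, −0.15 and −1.28, and with at least 1000 UMIs −0.11, 0.0070, −0.51 and −1.69, so the CAF-1 OFF values turned direction. It was −0.43, −0.41, −1.21 and −2.38 with TMM, −0.43, −0.47, −1.54 and −2.95 without mitochondrial-encoded UMIs in the total, −0.46, −0.50, −1.56 and −3.33 also without ribosomal protein UMIs, −0.42, −0.45, −1.37 and −2.54 without the top 50, and −1.19, −1.23, −0.59 and −1.95 against the other 0 h library. With median-of-ratios factors it was −0.47, −1.27 and −2.31 for CAF-1 OFF at 48 h, then HOXA9 OFF at 48 and 96 h. The UMI ratio of mitochondrial-encoded to nuclear-encoded genes over all barcodes was 2.27, 1.76, 1.91, 4.19, 2.10 and 1.32. It was 1.26, 1.41, 1.65, 1.24, 1.70 and 1.31 within the limits, 1.37, 1.45, 1.71, 1.34, 1.76 and 1.31 with a 20% limit, and 1.57, 1.52, 1.84, 1.82, 1.83 and 1.31 with at least 1000 UMIs. Without mt-Atp6 it was 1.67, 1.29, 1.39, 3.1, 1.51 and 1.03. The median share per cell was 4.12%, 3.90%, 3.54%, 4.21%, 2.66% and 1.60% unthinned, and 4.12%, 3.88%, 3.50%, 4.19%, 2.77% and 1.81% at 2600 UMIs. The latter values cover only cells with at least 2600 UMIs, which in HOXA9 OFF at 96 h were 426 of 1510.

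Of 3920 values for named genes under alternatives, 121 had the opposite sign, and of 1526 for genes past 1.5-fold, 0 did. Both totals include settings that change only the added CPM or the minimum level. These cannot turn a sign, so the totals make the signs look more stable than the other settings alone would. No paired analysis was possible because each group has 1 library and the result comes from no test. The limits are 1 clone and 1 library per group, which no alternative can replace.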
